A study of Mus musculus with 6 samples.

Results

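The collagens, laminins and nidogens are the chains from which cells build fibrils, basement membranes and the links between them. They were taken as every gene with a mouse symbol of the form Col, a number, a and a number, every symbol that begins Lama, Lamb or Lamc followed by a digit, and Nid1 and Nid2. The rule found 57 genes among the 41214 listed in the files, and used no measured value. These genes were, as a set, chosen with earlier results of these data known. They were described as 11 fibrillar collagens, 21 genes of basement membranes (8 collagens, 11 laminins and 2 nidogens) and 25 other collagens. RNA was sequenced from 3 libraries of cells that carried a short hairpin RNA against CdGAP (shCdGAP, genotype label CdGAP KD) and 3 that carried a control hairpin (shCTL, genotype label WT). All 6 came from mouse mammary tumour explant cells that go back to the mammary epithelial line NMuMG and carry ErbB2, a growth factor receptor that drives such tumours. The Arhgap31 gene encodes CdGAP, a GTPase-activating protein that acts on Cdc42 and Rac1. The labels do not say how many hairpin sequences or clones were used, nor whether the replicates were separate cultures, so the p-values reflect only how far these libraries vary, and that variation may be technical.

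Fibrillar collagens assemble into the cables of connective tissue. Basement membranes, the sheets on which epithelia rest, are built from a network of type IV collagen and a network of laminins, which are trimers of an alpha (Lama), a beta (Lamb) and a gamma (Lamc) chain, with nidogens bridging the networks. In the mammary gland the basement membrane separates the epithelium from its stroma, and laminin signals through integrins to the epithelial cells. The other collagens decorate fibrils, form beaded filaments or anchor the basement membrane to the tissue beneath.

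Arhgap31, the targeted gene, was at 1.70, 9.15 and 8.20 CPM (counts scaled to a library total of 1e+06, after TMM) in the shCdGAP libraries, against 13.2, 14.4 and 15.1 CPM in the shCTL libraries. It was lower in all 3 shCdGAP libraries, with a log2 fold change of −1.16 ± 0.55 (SE) that did not pass the test (adjusted p = 0.19). Without shCdGAP replicate 1 it was −0.71 and passed (adjusted p = 0.00407). Library totals ran from 22088774 to 25893195 counts in shCdGAP and from 19176540 to 26824249 counts in shCTL. In a principal component analysis of all tested genes, the leading axis (72.0% of the variance) held the groups on opposite sides. The next (21.7%) set shCdGAP replicate 1 apart from the other shCdGAP libraries. Values that move most with that library are therefore given with and without it. On the second axis shCTL replicate 1 (16.4) lay on the side of shCdGAP replicate 1 (66.6). The shCTL replicates 2 and 3 were at −3.70 and −4.71, so number 1 differed in both groups, by less in shCTL. Keratin genes of luminal epithelium were abundant in every library, with Krt8 between 2851 and 5369 CPM in shCdGAP and between 2680 and 4101 CPM in shCTL, whereas Cldn4 had 2 counts in shCdGAP and 5 in shCTL and Epcam had 0 counts in shCdGAP and 92 in shCTL. Markers of the stromal cells that make most collagen in tissue were at or near 0. The 6 fibroblast markers summed to between 1.51 and 4.20 CPM in shCdGAP and between 3.45 and 4.69 CPM in shCTL, nearly all of it Pdgfra, with Lum and Thy1 at 0 counts in every library. The 5 pericyte and smooth muscle markers summed to at most 0.589 CPM in shCdGAP and 0.979 CPM in shCTL, the 6 basal and myoepithelial markers to at most 0.134 and 1.73 CPM, and the 6 endothelial markers to at most 0.179 and 1.49 CPM. The 6 leukocyte markers summed to between 4.52 and 12.4 CPM in shCdGAP and between 15.9 and 22.2 CPM in shCTL, mostly Cd68, with Adgre1 at 0. The 4 adipocyte markers summed to between 1.18 and 2.32 CPM in shCdGAP and between 3.16 and 4.48 CPM in shCTL, with Plin1 at 0. Of these markers Krt5 and Epcam fell and Cdh1 and Itgam rose. Tek and Fabp4 also fell, but the Tek call was lost with the replicate number as a block (adjusted p = 0.0547) and the Fabp4 call without shCdGAP replicate 2 (0.0709) or shCTL replicate 1 (0.0638) or 3 (0.0667). In shCdGAP Krt5, Epcam and Tek lay below the cut of the filter on low counts (0.408 CPM), so they were tested only because shCTL was high. The part of these cell type markers in the results was not tested. In bulk RNA, fewer cells of a type and less RNA per cell cannot be told apart.

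Of the 57 genes, 28 passed the filter on low counts and 29 did not. Among the 28, 7 rose and 6 fell in shCdGAP in edgeR's quasi-likelihood test with Benjamini-Hochberg adjustment over all 13483 tested genes (adjusted p under 0.05). Over all tested genes the same test called 10.4% as risen and 11.4% as fallen, 21.7% in all, against 46.4% of the 28. Groups did not overlap for 19 of the 28, with 12 higher and 7 lower, where 44.1% of all tested genes did not overlap, 21.7% higher and 22.4% lower. The median log2 fold change was 0.13 over the 28 and 0.010 over all tested genes. Of the 28, 24 passed the filter in both groups. Col4a3 passed through shCdGAP alone and Lama3, Lamc3 and Col6a3 through shCTL alone, so that these 4 were tested because a group was high. By class, 1 of 4 tested fibrillar collagens was called (fallen), 7 of 16 basement membrane genes (4 risen and 3 fallen) and 5 of 8 other collagens (3 risen and 2 fallen).

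**Figure D1:**
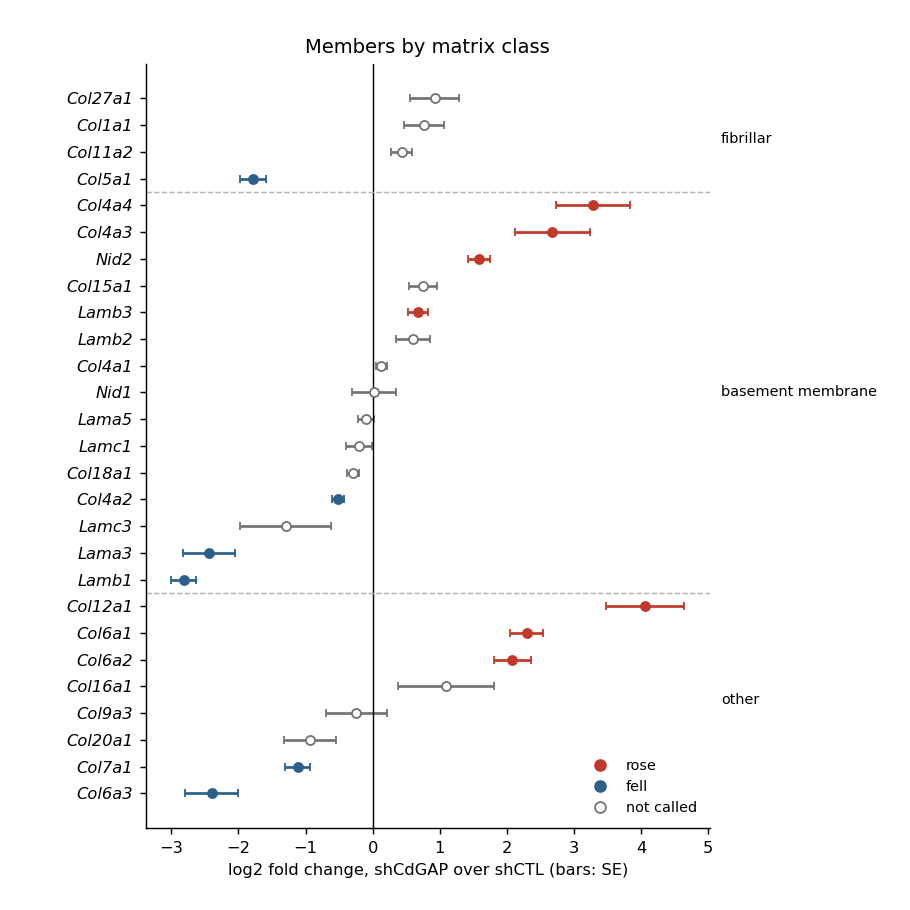
Log2 fold change of 27 of the 28 tested genes, shCdGAP over shCTL, by matrix class, with bars for the standard error. Filled points passed the test (red risen, blue fallen), and changes ran from −2.81 (Lamb1) to 4.06 (Col12a1).

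Summed over each class and divided by exon length, the cells made mostly basement membrane transcripts. The basement membrane class summed to 324, 302 and 291 CPM per kilobase of exon (kb) in shCdGAP replicates 1 to 3, against 320, 303 and 305 CPM per kb in shCTL replicates 1 to 3. Fibrillar collagens summed to 9.84, 17.3 and 14.2 CPM per kb in shCdGAP, against 11.5, 12.3 and 13.4 CPM per kb in shCTL. The groups overlapped in both of these sums. Within the basement membrane class the collagens were lower in every shCdGAP library (137, 131 and 130 against 160, 149 and 152 CPM per kb). Laminins overlapped (184, 169 and 158 against 159, 153 and 151) and nidogens were higher (3.06, 3.04 and 2.92 against 1.23, 1.35 and 1.15). Summed on library totals, not per kb, this class was lower in every shCdGAP library (2307, 2297 and 2091 against 2502, 2410 and 2398 CPM). Other collagens summed to 66.5, 57.0 and 41.5 CPM per kb in shCdGAP, against 14.02, 16.4 and 18.9 CPM per kb in shCTL, a ratio of means of 3.35, and these groups did not overlap. Col6a1 alone made up 75.0 ± 0.637% of this sum in shCdGAP and 50.7 ± 4.10% in shCTL (SD, n = 3). Col6a2 and Col12a1 were also higher in shCdGAP, while Col7a1, Col20a1 and Col6a3 had lower mean levels. The ratio therefore does not describe the class as a whole. Per kb, Col18a1 and Lama5 had the highest mean levels in both groups. Col6a1 ranked 3 of the 57 in shCdGAP, at 41.3 ± 9.45 CPM per kb (SD, n = 3), and 8 in shCTL, at 8.40 ± 1.91 CPM per kb.

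**Figure D2:**
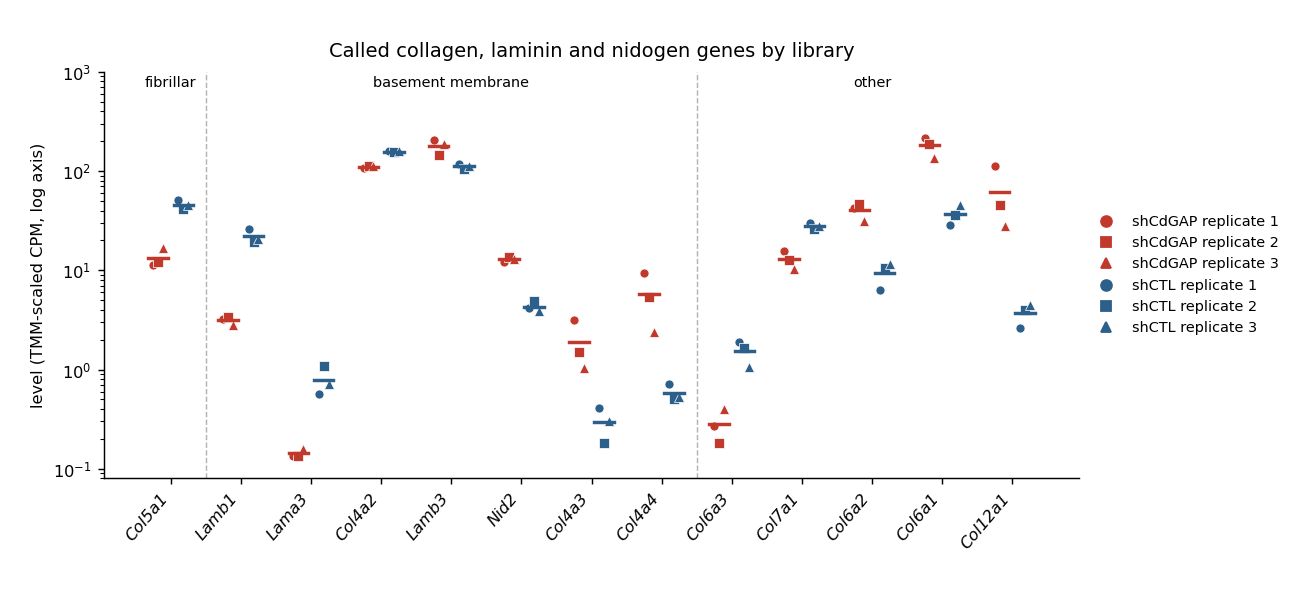
Level of the 13 called genes in each library, in CPM on a log axis, with shCdGAP in red and shCTL in blue, 1 marker shape per replicate and a line at the mean. The groups are apart for every gene drawn, and shCdGAP replicate 1 is the highest library for Col12a1, Col4a3, Col4a4, Col6a1, Lamb3 and Col7a1 within its group.

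Among fibrillar collagens Col5a1 fell, and no other passed the test. Col5a1 (ENSMUSG00000026837, GRCm38 chromosome 2 from 27886425 to 28039514) encodes the type V chain that starts and limits the width of type I fibrils. It was at 11.3, 12.1 and 16.6 CPM in shCdGAP, against 50.9, 41.2 and 45.7 CPM in shCTL, a 3.44-fold fall (log2 fold change −1.78 ± 0.189, adjusted p = 0.00159). All shCdGAP libraries lay below all shCTL libraries. Its partner chain gene Col5a2 had 9 counts in shCdGAP and 0 in shCTL over the 3 libraries of each group, and Col5a3 had 24 and 23 counts. The type V chain was thus measured without appreciable transcripts of its usual partners in either group.

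Col27a1, which encodes a fibrillar chain of cartilage, was the fibrillar gene with the highest level in shCdGAP, at 67.3, 170 and 128 CPM, against 45, 71.7 and 75.6 CPM in shCTL. Replicate 1 was the lowest library of each group. Only that of shCdGAP lay within the range of the other group, and the log2 fold change of 0.93 ± 0.362 did not pass (adjusted p = 0.123). It passed with the replicate number as a block (0.86, adjusted p = 0.0289) and without shCdGAP replicate 1 (1.23, adjusted p = 0.00263). Col11a2, a chain of cartilage fibrils, was at 18.2, 15 and 14.1 CPM in shCdGAP, against 12.2, 10.6 and 12.2 CPM in shCTL, and did not pass (0.43 ± 0.159, adjusted p = 0.106). Col1a1, the main chain of type I collagen, was near the bottom of the range that could be tested, at 2.86, 3.44 and 1.86 CPM in shCdGAP, against 1.60, 1.85 and 1.35 CPM in shCTL (0.76 ± 0.297, adjusted p = 0.123). Its groups did not overlap after TMM, but only by a narrow margin, and on library totals they overlapped. The partner gene Col1a2 had 0 counts in shCdGAP and 4 in shCTL, and Col3a1 had 4 and 0. Within the fibrillar class, Col5a1 made up 11.9 ± 3.18% of the summed level per kb in shCdGAP and 43.8 ± 7.06% in shCTL (SD, n = 3), while Col27a1 made up 65.9 ± 11.9% and 39.3 ± 8.12%.

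In basement membranes the type IV collagen genes lie in pairs that share a start region. Col4a1 and Col4a2 moved unequally, while Col4a4 and Col4a3 rose together. Col4a1 and Col4a2 encode the chains of the common type IV network, and lie head to head on chromosome 8 with annotated 5′ ends that overlap by 22 bases. Col4a4 and Col4a3, chains of the network of kidney glomeruli and some other epithelia, lie head to head on chromosome 1 with 71 bases between them. The windows below run from 250 bases before to 50 after the start of each gene (RefSeq, build GRCm38.p6, read 5′ to 3′ along the gene's strand) and are shown because both members of each pair are read from this stretch. Capitals mark 4 short motifs on either strand, searched as CACCTG (an E-box of the kind that Zeb factors bind), GGGCGG (the Sp1 motif), CCAAT and TGANTCA (the AP-1 motif).
Col4a1, chr8:11312777-11313076, minus strand: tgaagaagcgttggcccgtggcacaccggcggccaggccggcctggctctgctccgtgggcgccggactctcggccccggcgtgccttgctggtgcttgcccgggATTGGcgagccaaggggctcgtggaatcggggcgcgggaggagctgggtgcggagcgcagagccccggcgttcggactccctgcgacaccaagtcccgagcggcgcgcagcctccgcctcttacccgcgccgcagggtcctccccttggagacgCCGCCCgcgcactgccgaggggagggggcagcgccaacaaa
Col4a2, chr8:11312555-11312854, plus strand: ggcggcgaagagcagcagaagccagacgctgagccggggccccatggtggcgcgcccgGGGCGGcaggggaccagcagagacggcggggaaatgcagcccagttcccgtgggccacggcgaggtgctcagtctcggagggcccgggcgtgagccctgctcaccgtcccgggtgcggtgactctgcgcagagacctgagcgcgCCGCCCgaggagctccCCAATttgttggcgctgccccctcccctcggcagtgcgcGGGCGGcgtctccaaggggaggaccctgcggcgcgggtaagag
Col4a4, chr1:82586800-82587099, minus strand: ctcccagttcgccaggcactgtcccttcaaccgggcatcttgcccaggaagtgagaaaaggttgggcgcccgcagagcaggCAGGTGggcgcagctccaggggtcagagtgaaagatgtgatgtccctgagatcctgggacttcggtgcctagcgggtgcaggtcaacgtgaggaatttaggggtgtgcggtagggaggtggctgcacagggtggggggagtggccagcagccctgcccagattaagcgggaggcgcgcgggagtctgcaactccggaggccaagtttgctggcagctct
The Col4a1 and Col4a2 windows hold 78 bases in common, read on opposite strands, with GGGCGG in that stretch. The Col4a4 window also spans the annotated start of Col4a3 and holds CACCTG once, on the opposite strand as CAGGTG.

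Col4a2 (ENSMUSG00000031503, chromosome 8 from 11312805 to 11449287) fell to 107, 111 and 111 CPM in shCdGAP, against 157, 157 and 157 CPM in shCTL. The libraries of each group lay close together and the groups were apart. This is a 1.43-fold fall (log2 fold change −0.52 ± 0.0851, adjusted p = 0.00772), and the call was lost without shCTL replicate 2 (adjusted p = 0.0539) or 3 (0.0509) with the value at −0.52. Col4a1 (ENSMUSG00000031502, chromosome 8 from 11198423 to 11312826) was at 207, 201 and 193 CPM in shCdGAP, against 183, 181 and 185 CPM in shCTL, and did not pass (0.13 ± 0.0867, adjusted p = 0.341). Its groups did not overlap either, but on the other side, and only after TMM. On library totals they overlapped, with a log2 fold change of 0.073 (adjusted p = 0.611).

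The ratio of Col4a2 to Col4a1 within a library does not depend on scaling. Per kb it was 0.532, 0.569 and 0.595 in shCdGAP, against 0.886, 0.893 and 0.876 in shCTL. Each shCdGAP library thus held fewer Col4a2 fragments for each Col4a1 fragment than any shCTL library (exact permutation test of the log2 ratio, two-sided, p = 0.1, the smallest that 3 against 3 libraries allow). On TMM-scaled levels Col4a2 was lower and Col4a1 higher in every shCdGAP library, so the groups had to lie apart and the p-value adds no support. The mean ratio in shCdGAP was 0.639 of that in shCTL, and 0.622 to 0.657 with any library left out. As a share of all type IV transcripts per kb, Col4a2 took 33.8%, 35.7% and 37.0% in shCdGAP, against 46.9%, 47.1% and 46.6% in shCTL.

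The other head-to-head pair moved upward together from low levels. Col4a4 (ENSMUSG00000067158, chromosome 1 from 82448423 to 82586849) rose to 9.33, 5.39 and 2.38 CPM in shCdGAP, against 0.722, 0.509 and 0.526 CPM in shCTL, with a log2 fold change of 3.28 ± 0.551 (adjusted p = 0.00832). Col4a3 (ENSMUSG00000079465, chromosome 1 from 82586921 to 82722059) rose to 3.17, 1.495 and 1.03 CPM in shCdGAP, against 0.412, 0.182 and 0.301 CPM in shCTL (2.68 ± 0.552, adjusted p = 0.0174). In both genes shCdGAP replicate 1 was the highest library and replicate 3 the lowest of the 3, and all 3 lay above shCTL. Without replicate 1 the log2 fold change was 2.74 for Col4a4 (adjusted p = 0.0012) and 2.11 for Col4a3 (adjusted p = 0.00406). The Col4a3 call was lost without shCTL replicate 2 (adjusted p = 0.0793) or 3 (0.0760), and Col4a3 passed the filter through shCdGAP alone. Their ratio per kb, Col4a3 over Col4a4, was 0.362, 0.295 and 0.461 in shCdGAP, against 0.608, 0.380 and 0.608 in shCTL, and overlapped (exact permutation p = 0.2, two-sided). Col4a5, whose chain joins these 2 in the glomerular network, had 0 counts in shCdGAP and 9 in shCTL, and its head-to-head neighbour Col4a6 had 0 and 1. Even in shCdGAP the Col4a4 and Col4a3 transcripts were a small part of type IV collagen, at most 1.84% and 0.667% per kb.

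**Figure D3:**
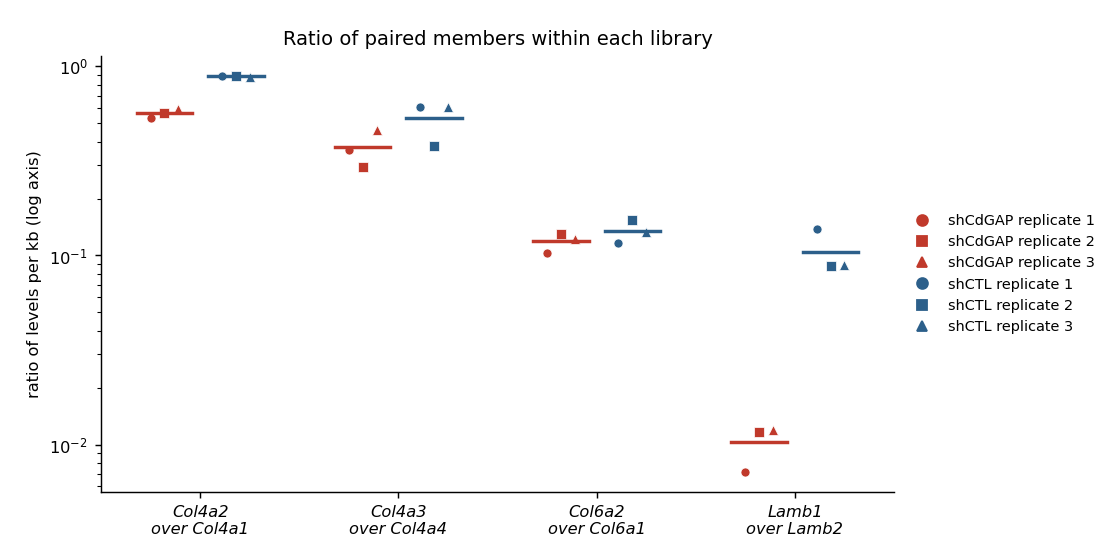
Ratio of levels per kb of 2 genes within each library, on a log axis, with shCdGAP in red left of shCTL in blue, 1 marker shape per replicate and a line at the mean. Col4a2 over Col4a1 and Lamb1 over Lamb2 are lower in every shCdGAP library than in any shCTL library, while the 2 other ratios drawn overlap.

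Col18a1 and Col15a1 encode the collagens of the basement membrane zone whose ends release endostatin and a related fragment. Col18a1 was at 597, 568 and 573 CPM in shCdGAP, against 751, 682 and 698 CPM in shCTL, and missed the threshold (log2 fold change −0.29 ± 0.0925, adjusted p = 0.0687). Col15a1 was at 26.2, 18.9 and 16.6 CPM in shCdGAP, against 13.0, 10.6 and 13.1 CPM in shCTL, and also missed it (0.75 ± 0.212, adjusted p = 0.0502). In both the groups were apart, Col18a1 lower and Col15a1 higher in shCdGAP. Without shCdGAP replicate 1 both passed (adjusted p = 0.0230 for Col18a1 and 0.0165 for Col15a1), as they did in DESeq2 (0.00816 and 0.00835).

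Among laminins the beta chain Lamb1 fell, the beta chain Lamb3 rose and the dominant alpha chain Lama5 did not pass. Lamb1 (ENSMUSG00000002900, chromosome 12 from 31265234 to 31329644), the beta chain of the classic laminin of embryonic basement membranes, was at 3.26, 3.35 and 2.81 CPM in shCdGAP, against 26.3, 19.4 and 20.6 CPM in shCTL. This 7.03-fold fall had the smallest adjusted p of the 28 (log2 fold change −2.81 ± 0.188, adjusted p = 0.000373), with replicates of each group close together. Its start window is shown because it carried the largest fall, with the same motifs in capitals.
Lamb1, chr12:31265043-31265342, plus strand: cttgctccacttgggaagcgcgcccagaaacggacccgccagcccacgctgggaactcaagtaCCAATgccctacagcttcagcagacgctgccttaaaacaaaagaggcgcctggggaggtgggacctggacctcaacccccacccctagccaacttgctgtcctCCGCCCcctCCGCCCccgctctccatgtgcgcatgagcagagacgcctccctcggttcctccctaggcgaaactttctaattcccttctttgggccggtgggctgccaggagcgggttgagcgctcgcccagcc
It holds GGGCGG 2 times and CCAAT 1 time, and CACCTG 0 times.

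Lamb2, the beta chain of neuromuscular junctions and glomeruli, was at 259, 162 and 134 CPM in shCdGAP, against 108, 125 and 132 CPM in shCTL, and its groups were just apart, with replicate 1 well above the other shCdGAP libraries (0.60 ± 0.25, adjusted p = 0.141; 0.30 without replicate 1, adjusted p = 0.0726). Lamb3 (ENSMUSG00000026639, chromosome 1 from 193301957 to 193343878), a chain of the laminin that holds epithelia to hemidesmosomes, rose to 204, 144 and 187 CPM in shCdGAP, against 119, 104 and 111 CPM in shCTL (0.68 ± 0.15, adjusted p = 0.022). The groups were apart, but the Lamb3 call was lost without shCdGAP replicate 3 (adjusted p = 0.0578) or without shCTL replicate 1 (0.0560), 2 (0.104) or 3 (0.0921). The ratio of Lamb1 to Lamb2 per kb was 0.00715, 0.0117 and 0.0119 in shCdGAP, against 0.138, 0.0879 and 0.0888 in shCTL, a mean 10.2-fold lower in shCdGAP (exact permutation test of the log2 ratio, two-sided, p = 0.1). On TMM-scaled levels Lamb1 was lower and Lamb2 higher in every shCdGAP library, so the groups had to lie apart and the p-value adds no support. On library totals the Lamb2 groups overlapped. Of all beta chain transcripts per kb, Lamb1 made up 0.353%, 0.543% and 0.424% in shCdGAP, against 5.40%, 4.07% and 4.08% in shCTL.

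Lama5, the alpha chain of adult epithelial basement membranes, was at 750, 700 and 581 CPM in shCdGAP, against 744, 731 and 703 CPM in shCTL (−0.10 ± 0.122, adjusted p = 0.611), and the groups overlapped. It made up at least 99.8% of alpha chain transcripts per kb in every library. Lama3 (ENSMUSG00000024421, chromosome 18 from 12333819 to 12583013), the alpha chain that pairs with Lamb3, had 3, 3 and 4 counts in shCdGAP, against 11, 30 and 19 counts in shCTL. It fell 5.42-fold (−2.44 ± 0.39, adjusted p = 0.0071), to 0.143 ± 0.0136 CPM in shCdGAP, against 0.791 ± 0.27 CPM in shCTL (SD, n = 3), both very low levels. Lama3 passed the filter through shCTL alone, so it was tested because that group was high. Lama1, Lama2 and Lama4 had 9, 2 and 0 counts in shCdGAP and 0, 10 and 1 in shCTL. The Lamb3 rise was measured beside next to no transcript of its alpha partner.

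The gamma chain genes Lamc1 and Lamc3 did not pass the test on all 6 libraries. Lamc1, the common gamma chain, was at 187, 309 and 275 CPM in shCdGAP, against 321, 292 and 273 CPM in shCTL (−0.20 ± 0.194, adjusted p = 0.512; −0.0075 without shCdGAP replicate 1, adjusted p = 0.959). Lamc3 was at 0.223, 0.952 and 1.47 CPM in shCdGAP, against 0.928, 2.47 and 3.08 CPM in shCTL (−1.29 ± 0.679, adjusted p = 0.232), with replicate 1 the lowest of each group. It passed with the replicate number as a block (−1.39, adjusted p = 0.0402), and was −0.84 without shCdGAP replicate 1 (adjusted p = 0.192).

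**Figure D4:**
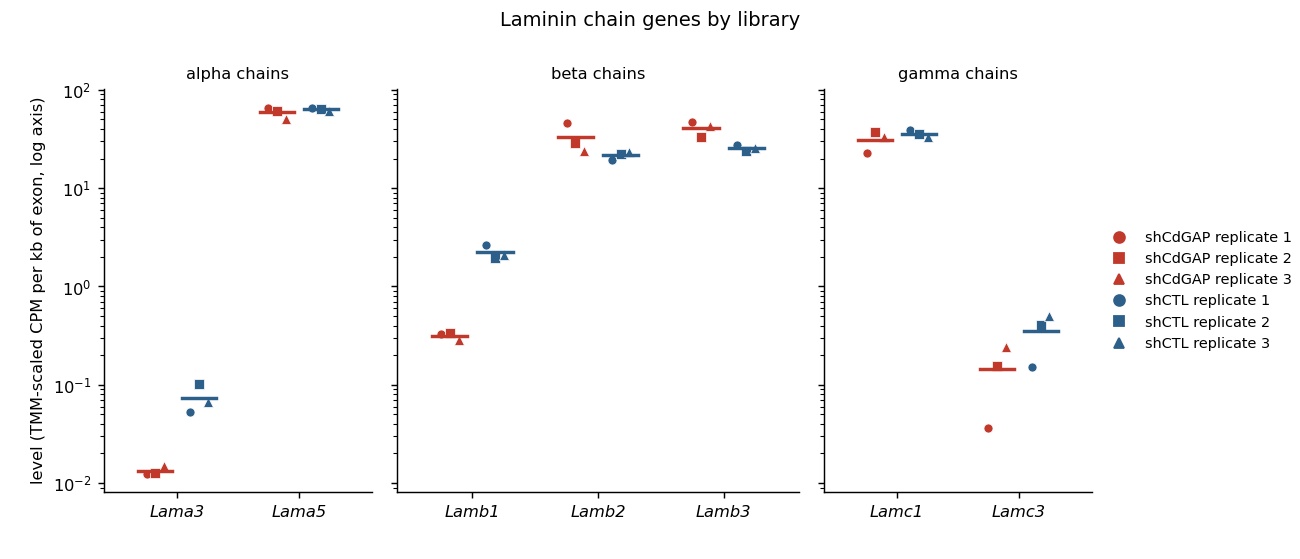
Level per kb of 7 tested laminin chain genes in each library, on a log axis, with shCdGAP in red left of shCTL in blue and a line at the mean. Lama5 is near 60 CPM per kb in both groups, Lamb1 is lower in all 3 shCdGAP libraries, and Lamc3 is lowest in replicate 1 of each group.

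The nidogens differed between themselves. Nid2 (ENSMUSG00000021806, chromosome 14 from 19751257 to 19811787) rose to 12.2, 13.5 and 13.0 CPM in shCdGAP, against 4.18, 4.87 and 3.87 CPM in shCTL, 2.99-fold (log2 fold change 1.58 ± 0.163, adjusted p = 0.00144). Its groups were far apart and each was tight. Nid1, the more widely studied bridge of laminin and type IV collagen, was at 3.35, 1.72 and 1.59 CPM in shCdGAP, against 2.27, 2.15 and 2.14 CPM in shCTL (0.020 ± 0.334, adjusted p = 0.974; −0.39 without shCdGAP replicate 1, adjusted p = 0.199). Only shCdGAP replicate 1 lay above shCTL for Nid1, and the other 2 lay below. Per kb, Nid2 was at 2.64 ± 0.126 CPM in shCdGAP and 0.882 ± 0.105 CPM in shCTL, and Nid1 at 0.367 ± 0.162 and 0.361 ± 0.0119 CPM (SD, n = 3).

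Among other collagens, the type VI genes Col6a1 and Col6a2 and the fibril-associated Col12a1 rose, and Col6a3 and Col7a1 fell. Type VI collagen is a beaded filament around cells, usually a trimer of the chains of Col6a1, Col6a2 and a longer chain such as that of Col6a3. Col6a1 (ENSMUSG00000001119, chromosome 10 from 76708792 to 76726168) rose to 217, 189 and 136 CPM in shCdGAP, against 28.8, 36.1 and 45.5 CPM in shCTL, 4.91-fold (2.30 ± 0.242, adjusted p = 0.00156). Col6a2 (ENSMUSG00000020241, chromosome 10 from 76595762 to 76623630) lies 85161 bases away on the same strand and rose to 42.5, 46.8 and 31.7 CPM in shCdGAP, against 6.39, 10.5 and 11.5 CPM in shCTL, 4.24-fold (2.08 ± 0.269, adjusted p = 0.00325). In both genes every shCdGAP library was well above every shCTL library. Their ratio per kb, Col6a2 over Col6a1, was 0.103, 0.1302 and 0.123 in shCdGAP, against 0.117, 0.154 and 0.133 in shCTL, and overlapped (exact permutation p = 0.4, two-sided). The start window of Col6a1 is shown as that of the risen gene with the highest mean level, and holds TGANTCA once and none of the other motifs.
Col6a1, chr10:76725995-76726294, minus strand: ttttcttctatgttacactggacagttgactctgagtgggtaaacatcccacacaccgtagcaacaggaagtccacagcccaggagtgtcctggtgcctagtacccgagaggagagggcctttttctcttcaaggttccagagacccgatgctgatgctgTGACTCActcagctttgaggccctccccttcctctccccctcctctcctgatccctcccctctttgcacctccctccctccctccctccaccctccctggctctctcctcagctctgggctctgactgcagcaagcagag

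Col6a3 (ENSMUSG00000048126, chromosome 1 from 90765923 to 90843971) went the other way at a far lower level. It had 0.268, 0.181 and 0.396 CPM in shCdGAP, against 1.91, 1.64 and 1.05 CPM in shCTL, a 5.28-fold fall (−2.40 ± 0.394, adjusted p = 0.00776). Relative to Col6a1 per kb it was at 0.000451, 0.000351 and 0.00107 in shCdGAP, against 0.0243, 0.0166 and 0.00847 in shCTL, with the groups apart (exact permutation p = 0.1, two-sided). This separation was given in advance, as Col6a3 was lower and Col6a1 higher in every shCdGAP library, so the p-value adds no support. Col6a3 also passed the filter through shCTL alone and rests on low counts in shCdGAP. The alternative long chain genes Col6a4, Col6a5 and Col6a6 had 0, 2 and 0 counts in shCdGAP and 2, 6 and 1 in shCTL. Long-chain transcripts were thus scarce beside Col6a1 in both groups.

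Col12a1 (ENSMUSG00000032332, chromosome 9 from 79598991 to 79718831), a fibril-associated collagen of tissues under tension, had the largest rise of the 28. It was at 113, 45.05 and 27.9 CPM in shCdGAP, against 2.63, 3.96 and 4.47 CPM in shCTL, 16.7-fold (4.06 ± 0.583, adjusted p = 0.00479). Replicate 1 was 3.09-fold above the mean of replicates 2 and 3, and without it the log2 fold change was 3.29 (adjusted p = 5.01e-05). Col16a1, which associates with fibrils and with basement membranes near them, was at 2.05, 19.2 and 18.9 CPM in shCdGAP, against 5.57, 7.02 and 6.24 CPM in shCTL (1.09 ± 0.721, adjusted p = 0.338). Here replicate 1 lay below every shCTL library and replicates 2 and 3 above every one, and without replicate 1 the log2 fold change was 1.61 (adjusted p = 8.5e-05).

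Col7a1 (ENSMUSG00000025650, chromosome 9 from 108953586 to 108984875), the chain of the fibrils that anchor epidermal basement membrane, fell to 15.7, 12.7 and 10.3 CPM in shCdGAP, against 29.8, 25.9 and 28.0 CPM in shCTL, 2.16-fold (−1.11 ± 0.185, adjusted p = 0.0081). Its groups were apart. Col17a1, the transmembrane collagen of hemidesmosomes, had 3 counts in shCdGAP and 19 in shCTL and was not tested. Col20a1 was at 8.35, 3.76 and 3.17 CPM in shCdGAP, against 7.89, 10.9 and 10.3 CPM in shCTL (−0.93 ± 0.39, adjusted p = 0.146), and passed without shCdGAP replicate 1 (−1.48, adjusted p = 0.000797). Col9a3, a chain of cartilage, was at 1.65, 0.725 and 0.555 CPM in shCdGAP, against 1.24, 0.873 and 1.35 CPM in shCTL (−0.24 ± 0.456, adjusted p = 0.757; −0.84 without shCdGAP replicate 1, adjusted p = 0.0856).

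The 29 genes that did not pass the filter had few counts. Col9a1 and Col13a1 had 0 in all 6 libraries, and 10 others (Col4a6, Lama4, Col11a1, Col6a4, Col6a6, Col19a1, Col9a2, Col10a1, Col8a2 and Col25a1) had 1 to 3 counts in all. The 2 with the most were Col2a1, the cartilage fibril gene, with 11 counts in shCdGAP and 43 in shCTL, and Col5a3. Col22a1 had 4 counts in shCdGAP and 35 in shCTL, Col26a1 had 0 and 8, Col23a1 had 1 and 10, Col14a1 had 9 and 17, and Col8a1 had 6 and 14. Col24a1 had 7 and 3 and Col28a1 had 8 and 3.

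The shCdGAP libraries spread more than the shCTL libraries over these genes. Replicate 1 stood apart from the other shCdGAP libraries over all tested genes too (21.7% of the variance), so this spread is not shown to be particular to them. The share of all tested genes was not computed for the counts that follow. The coefficient of variation was larger in shCdGAP for 23 of the 28, and replicate 1 differed over 1.5-fold from the mean of replicates 2 and 3 in 12. In 7 of the 12 replicate 1 was higher, namely Col12a1, Col4a3, Col4a4, Col9a3, Col20a1, Nid1 and Lamb2. In the other 5, among them Col16a1, Lamc3, Col27a1 and Lamc1, it was lower, by 9.28-fold for Col16a1. Without that library 30 of the 57 were tested, of which 11 rose and 10 fell, where 19.9% and 21.9% of all tested genes did (41.8% in all). All 13 genes called on 6 libraries were among these 21, and the added ones included Col15a1, Col16a1 and Col27a1 (risen) and Col18a1, Col20a1, Col22a1 and Col2a1 (fallen).

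**Figure D5:**
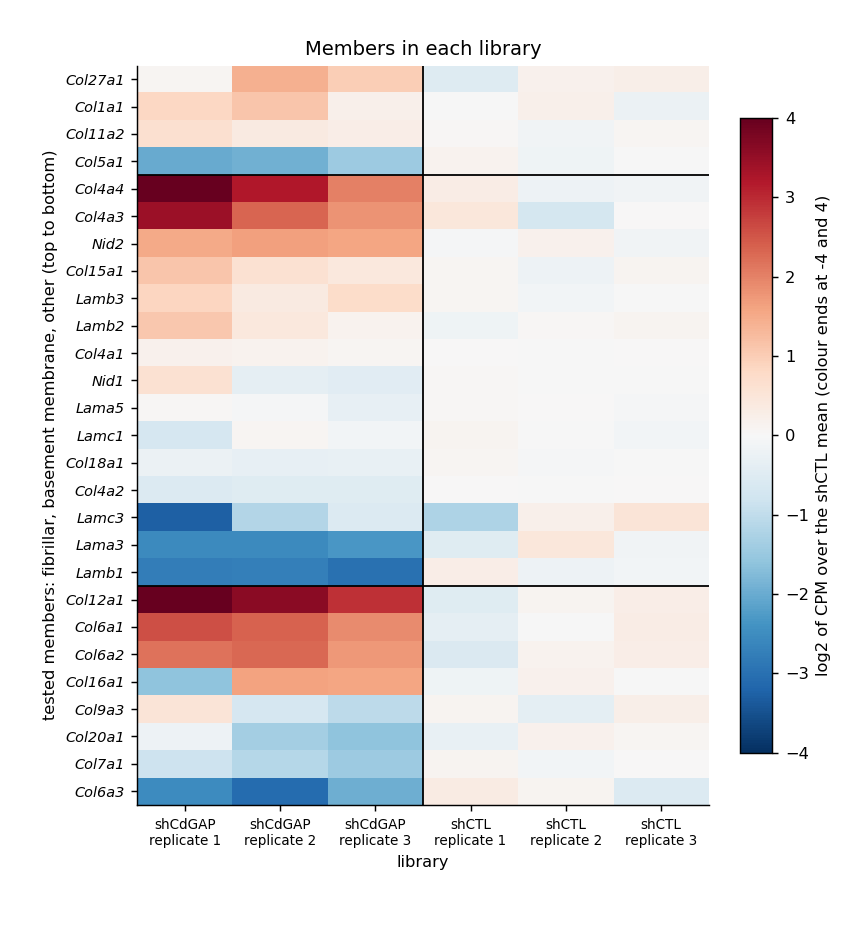
Log2 of the level in each library over the shCTL mean for 27 of the 28 tested genes, by class, with colour ending at −4 and 4. In shCdGAP replicate 1 Col16a1 is blue while replicates 2 and 3 are red, and Lamb1, Nid2 and Col4a2 have even colour across the 3 shCdGAP libraries.

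Genes that fold collagens and genes that bind collagens or laminins changed in both directions. Of 20 tested genes of collagen folding, modification and export, 3 rose and 4 fell (median log2 fold change −0.15). Over all tested genes 10.4% rose and 11.4% fell. Serpinh1, the collagen chaperone HSP47, was at 427 ± 65.1 CPM in shCdGAP and 162 ± 5.47 CPM in shCTL (log2 fold change 1.396 ± 0.133, adjusted p = 0.00113). Colgalt1, which puts galactose on collagen hydroxylysine, rose as well (0.79 ± 0.131, adjusted p = 0.008). Mia2 rose with a call that was lost with the replicate number as a block (adjusted p = 0.0618) and whenever a library besides shCdGAP replicate 1 was dropped (up to 0.156). P3h3, a prolyl hydroxylase family member, was at 0.139 ± 0.0963 CPM in shCdGAP and 5.90 ± 0.495 CPM in shCTL (−5.32 ± 0.419, adjusted p = 0.000587; −5.95 without shCdGAP replicate 3). In shCdGAP P3h3 lay below the filter cut of 0.408 CPM, so it was tested only because shCTL was high. Its shCdGAP mean was also near the level that 3 counts give, so the size of its fall is uncertain. The lysyl hydroxylase gene Plod2 fell (−1.26 ± 0.139, adjusted p = 0.00181). So did Mia3, the receptor that exports procollagen from the endoplasmic reticulum (−0.65 ± 0.113, adjusted p = 0.00939, and 0.0513 without shCTL replicate 2). The fallen gene not yet named, Sec24d, lost its call with the replicate number as a block (adjusted p = 0.0565) and in 4 of 6 fits with 1 library dropped (up to 0.129). Dropping 1 library left 2 to 5 risen and 2 to 7 fallen in this list, both highest without shCdGAP replicate 1, and 2 fallen without shCTL replicate 2. Without shCdGAP replicate 1, 19.9% of all tested genes rose and 21.9% fell. Of 5 tested genes of procollagen processing, 0 rose and 2 fell (median −0.68), where 10.4% of all tested genes rose and 11.4% fell. The fallen genes were Pcolce, an enhancer of procollagen cleavage (−1.02 ± 0.168, adjusted p = 0.00776), and Adamts14, with −2.03 ± 0.55 (adjusted p = 0.0432), −2.97 without shCdGAP replicate 1, and no call when any of the other 5 libraries was dropped (reaching 0.132).

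Of 13 tested other basement membrane components, 6 rose and 2 fell (median 0.83), where 10.4% of all tested genes rose and 11.4% fell. Hmcn1, a hemicentin, was at 19.3 ± 1.37 CPM in shCdGAP and 0.461 ± 0.146 CPM in shCTL (5.35 ± 0.256, adjusted p = 0.00016). Its shCTL level lay close to the filter cut of 0.408 CPM. The 6 risen genes may thus include some tested only because shCdGAP was high, which would also raise the median. Such genes were not counted. Tinag, a nephritis antigen of tubular basement membranes, was at 18.9 ± 10.9 CPM in shCdGAP and 0.915 ± 0.493 CPM in shCTL (4.33 ± 0.564, adjusted p = 0.00338; 3.75 without shCdGAP replicate 1). Ntn1 rose (4.53 ± 0.982, adjusted p = 0.021; 3.41 without shCdGAP replicate 3 and 5.11 without shCTL replicate 2), with no call without any one of the shCTL libraries (up to 0.0838). Npnt, a ligand of integrins, fell (−0.89 ± 0.135, adjusted p = 0.00586), and so did Smoc1, whose call was lost without any one of the shCTL libraries (adjusted p up to 0.0668). Dropping 1 library changed the number risen. It was 2 without any one of the shCTL libraries, and 8 without shCdGAP replicate 1, where 19.9% of all tested genes rose. With the replicate number as a block 5 rose, as the Papln call was lost (adjusted p = 0.0966).

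Of 13 tested receptors of collagens and laminins, 4 rose and 3 fell (median 0.015), where 10.4% of all tested genes rose and 11.4% fell. Bcam, a receptor for the Lama5 chain, was at 47.4 ± 14.3 CPM in shCdGAP and 3.99 ± 0.474 CPM in shCTL (3.57 ± 0.264, adjusted p = 0.000482). The collagen-binding integrin gene Itga1 was at 48.5 ± 21.4 CPM in shCdGAP and 3.05 ± 0.453 CPM in shCTL (3.98 ± 0.354, adjusted p = 0.000896), and Ddr1, a collagen receptor kinase, rose too (1.29 ± 0.183, adjusted p = 0.00456). Itga6, an integrin subunit for laminins, was at 112 ± 8.53 CPM in shCdGAP and 549 ± 102 CPM in shCTL (−2.29 ± 0.16, adjusted p = 0.00042). Itga3 and Ddr2 fell with calls that were lost without any one of the shCTL libraries (adjusted p up to 0.0918 and 0.0771), and that of Ddr2 also without shCdGAP replicate 2 (0.0726) or 3 (0.0692), while it was −3.80 without shCdGAP replicate 1.

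Start windows were on hand for 41 of the 57 genes (45 windows of 300 bases). CACCTG on either strand was in 7 of the 45, against 20.2% of the 32851 mouse windows, and among the 9 called genes with a window Col4a4 and Lamb3 held it. GGGCGG was in 27 of the 45 (35.7% of all windows), CCAAT in 15 (37.4%) and TGANTCA in 1, that of Col6a1 (7.81%). A match describes the letters only.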

How the data were processed

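RNA was measured in 6 libraries (3 shCdGAP, 3 shCTL). The authors deposited raw fragment counts for each gene. As given per the file headers, featureCounts 1.4.6 counted pairs on TopHat alignments with Ensembl release 77 of GRCm38 and strand option 2 (reverse-stranded), so opposite strands were counted apart. Per the submitters' processing notes, CASAVA 1.8, Trimmomatic 0.30 and TopHat2 2.0.14 came before. Symbols from the reference table matched 40254 of 41214 gene IDs.

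The members and gene lists were chosen with earlier results of these data known. Genes were filtered by filterByExpr (minimum count 10, minimum total 15) and scaled by TMM, and edgeR 4.0.16 (R 4.3.3) tested shCdGAP against shCTL by quasi-likelihood over 13483 genes with Benjamini-Hochberg adjustment. Adjusted p-values come from this test unless DESeq2 (1.42.0) is named. The steps were tested on simulated counts. SEs are the absolute log2 fold change over the square root of F. Levels per kb divide CPM by the exon length in the files. A count of 0 allows up to 0.109 to 0.155 CPM (3 counts), for counting error only. By rule, values were given for each called member, the 4 uncalled members of each class with the highest level per kb, both nidogens, Arhgap31 and, per list, the 3 risen and 3 fallen genes with the smallest adjusted p. The remaining tested members and some markers are given besides, except 1 tested member, which is counted but not reported here. Alternatives were DESeq2, other scalings and filters, a replicate block and leaving out libraries. The most alike libraries (shCTL 2 and 3) differed by more than counting noise (chi-square 3.16 times its degrees of freedom), so no library looked deposited more than once. This does not show that they came from separate cultures. Same-numbered libraries correlated at 0.36, 0.29 and 0.25 in their deviations from group means, all above 0.1, the limit used here to call numbers paired. Libraries with different numbers also passed it, shCdGAP 2 with shCTL 3 at 0.25 and shCdGAP 3 with shCTL 2 at 0.19, so only number 1 stood apart and a pairing of 2 and 3 is not shown. The test reported does not use the pairing.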

Additional observations from a re-analysis of the deposited data

How the results depend on the processing

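The 13 called genes kept their direction wherever they were tested, and 8 to 13 of them were called in each. The lowest number came from requiring a mean of at least 10 CPM, which leaves 17 of the 57 genes to test. With that filter, 870 genes rose and 825 fell over all genes, and 4 members rose and 4 fell. Among these members 1 basement membrane gene rose and 1 other collagen fell. The called members left out, Col4a3, Col4a4, Col6a3, Lama3 and Nid2, were not tested under it. DESeq2 called 1 fibrillar collagen as risen (Col11a2). With the replicate block, 1 fibrillar collagen rose (Col27a1), Lamc3 also passed, and no other member's call changed. Without both libraries numbered 1, a setting chosen after the data were seen, 3475 genes rose and 3640 fell. Of 29 tested members 12 rose and 10 fell, with 2 fibrillar collagens risen and 2 fallen, and 5 basement membrane genes fallen. With 1 library left out, 538 to 2753 genes rose and 856 to 3032 fell. Members risen then ran from 5 to 11 and fallen from 5 to 10. Fibrillar collagens ran from 0 to 1 risen and 1 to 2 fallen, basement membrane genes from 2 to 6 and 2 to 4, and other collagens from 3 to 4 and 2 to 4. The high ends came without shCdGAP replicate 1 for all genes and for members. Values given here that changed sign were all of genes not called in that setting. With 1 library left out, log2 fold changes ran from −0.17 to 0.00085 for Lama5, from −0.84 to 0.049 for Col9a3 (both highest without shCdGAP replicate 3), and from −0.39 to 0.22 for Nid1. The Lamc1 value was 0.054 without both libraries numbered 1. The Nid1 value was −0.041 on library totals, −0.0013 with no filter, −0.057 with the replicate block, −0.39 without shCdGAP replicate 1 and −0.37 without both libraries numbered 1. The causes were not tested. Depth limits the 29 untested genes. Of these, Col22a1 was called with no filter, and Col22a1 and Col2a1 without shCdGAP replicate 1.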
